A study of Mus musculus with 3 samples.

Results

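The Fc gamma receptors of mouse myeloid cells bind the constant part of IgG antibodies. The set described here held 6 of the 27998 genes counted, taken by symbol: the activating receptors Fcgr1, Fcgr3 and Fcgr4, their signalling chain Fcer1g, the inhibitory receptor Fcgr2b, and the IgG transport receptor Fcgrt. Each symbol matched 1 row, and no member was removed by a filter on low values. Activating receptors pass their signal through the FcR gamma chain, the product of Fcer1g, whose cytoplasmic motif recruits the kinase Syk after Src-family kinases have phosphorylated it. Fcgr2b carries an inhibitory motif in its own tail and recruits the phosphatase SHIP1, so the balance of both kinds on a macrophage or monocyte sets how readily antibody-coated cells are engulfed and killed. Fcgrt, which pairs with beta-2 microglobulin, binds IgG at acid pH inside the cell and returns it from endosomes to the surface.

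Single-cell RNA was counted in 3 libraries of sorted myeloid cells, 1 library per group. All mice were C57BL/6J and carried B16F10 melanoma, a transplantable mouse tumor line, under the skin. The control groups were blood and tumor of mice labelled WT, and the treated group, called the depleted tumor below, was tumor labelled FoxP3 DTR and treg-depleted, in which regulatory T (Treg) cells are removed by way of a diphtheria toxin receptor expressed from the Foxp3 gene. Genotype and depletion came together, so their effects cannot be told apart, and the labels give neither the age of the mice nor a number of animals beyond the design's single Treg-depleted mouse. The sort kept CD45+ cells that were CD11b+ and/or CD11c+ and removed cells positive for CD90, NK1.1, Ly6G, B220 or SigF, so lymphocytes, neutrophils and eosinophils in the data are those that passed the gate.

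Barcodes with at least 1000 UMIs (unique molecular identifiers, 1 per captured transcript), 400 genes or more and no more than 10% of UMIs from mitochondrial genes were taken as cells, which gave 5550 cells in control blood, and 4443 and 4434 in the control and the depleted tumor, with medians of 3550, 6452 and 3820 UMIs. The number of barcodes that 2 libraries shared was 27 to 36 per pair. Levels are given as CPM, the UMIs of a gene per 1000000 UMIs of its cell group. Brackets hold 95% counting intervals (exact Poisson for CPM, Clopper-Pearson for shares of cells), and describe counting error alone. With 1 library per group the spread between animals was not measured, and no test between groups was made. A fold of 2 was used as the mark for a difference, over genes with at least 20 UMIs in either library.

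Cells were clustered without the 6 genes and named from marker lists. The monocyte-to-macrophage lineage, called lineage cells below, held 4383 cells in blood, and 3275 and 3821 in the control and the depleted tumor. In blood it comprised monocyte-like cells (cluster 3, led by Fn1, Vcan, Chil3, Lpl and F13a1, and cluster 6, led by the interferon-induced genes Cxcl10, Ifit1, Ifit1bl1, Ifit3 and Ifit3b), nonclassical monocyte-like cells (cluster 1, led by Fabp4, Eno3, Cd300e, Ear2 and Slc12a2) and cluster 4, led by C1qb, H2-Aa, H2-Ab1, H2-Eb1 and Tmem176a. In the control tumor it comprised monocyte-like cells (cluster 14, led by Hp, Chil3, Cd177, Gsr and Ifitm6), macrophage-like cells (cluster 12, led by 2810417H13Rik, Birc5, Ube2c, Top2a and Igf1) and intermediate cells (cluster 15, led by Cxcl1, Cxcl3, Inhba, Il1a and Spp1, and cluster 17). In the depleted tumor it comprised monocyte-like cells (cluster 19, led by Hp, Ifitm6, Gm9733, Lyz2 and Spic), macrophage-like cells (cluster 18, led by Retnla, Rnase2a, Ccl8, Gbp2b and Mrc1, and 43 cells of cluster 15) and intermediate cells (cluster 16). At Leiden resolution 2, 289 of the 1558 cells of cluster 18 and 20 cells of cluster 16 fell in a cluster named CCR7 dendritic cell-like (374 cells, led by Ccl17, Tbc1d4, Ccr7, Ccl22 and Plet1), where Fcgr2b was at 612 CPM, so the lineage of the depleted tumor holds cells that carry a dendritic name under that setting, whose part in the lineage values was not tested. In the control tumor, cluster 11 (434 cells), with Fscn1, Ccl22 and Ccr7 among its leading genes, was left unnamed for its depth. It therefore stood outside the lineage. The macrophage-like cells of the 2 tumors were unlike: cell-cycle genes led cluster 12, the 10 macrophage markers found summed to 21826 CPM in control cells against 3358 CPM after depletion, and most cells lay in different clusters, so their receptor levels are set side by side by cluster and not compared as a class. Over all lineage cells the macrophage markers summed to 4404, 12420 and 2255 CPM in blood, control and depleted tumor, and the 8 classical monocyte markers to 13043, 4089 and 7125 CPM. What part this shift in cell states has in a difference over all lineage cells was not tested, and clusters found in both tumors are therefore given beside it.

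Of the 6 genes, 4 lie close together on mouse chromosome 1 (GRCm38 coordinates from GENCODE M21, the assembly also called mm10). In their order along the chromosome they are Fcgr2b (chr1:170958617-170976547, minus strand), Fcgr4 (chr1:171018920-171029761, plus strand), Fcgr3 (chr1:171051174-171064935, minus strand) and Fcer1g (chr1:171229572-171234365, minus strand). Fcgr1 lies at chr3:96282909-96293969 and Fcgrt at chr7:45092990-45103851, both on the minus strand. All 6 are protein-coding. Fcgr2b and Fcgr3 resemble each other in sequence, and how reads that fit both were assigned was not measured. The 250 bases before the RefSeq start sites (GRCm38.p6) of the 4 genes that enter the activating to inhibitory ratio are printed 5′ to 3′ on the gene's strand, because these genes differed in the cells where they were highest.
Fcgr1: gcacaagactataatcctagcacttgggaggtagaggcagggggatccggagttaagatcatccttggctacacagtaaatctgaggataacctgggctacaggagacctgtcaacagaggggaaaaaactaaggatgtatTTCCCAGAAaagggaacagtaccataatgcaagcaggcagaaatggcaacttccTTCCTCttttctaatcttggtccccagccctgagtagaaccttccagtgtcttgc
Fcgr3: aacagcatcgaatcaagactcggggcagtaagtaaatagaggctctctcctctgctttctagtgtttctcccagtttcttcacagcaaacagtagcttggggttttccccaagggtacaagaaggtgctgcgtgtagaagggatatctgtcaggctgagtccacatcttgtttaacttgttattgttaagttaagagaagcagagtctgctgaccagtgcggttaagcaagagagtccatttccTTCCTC
Fcgr4: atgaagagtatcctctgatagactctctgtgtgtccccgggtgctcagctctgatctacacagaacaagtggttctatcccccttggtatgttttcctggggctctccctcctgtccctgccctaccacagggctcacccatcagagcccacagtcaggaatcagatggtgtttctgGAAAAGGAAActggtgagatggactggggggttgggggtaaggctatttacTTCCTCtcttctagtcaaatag
Fcgr2b: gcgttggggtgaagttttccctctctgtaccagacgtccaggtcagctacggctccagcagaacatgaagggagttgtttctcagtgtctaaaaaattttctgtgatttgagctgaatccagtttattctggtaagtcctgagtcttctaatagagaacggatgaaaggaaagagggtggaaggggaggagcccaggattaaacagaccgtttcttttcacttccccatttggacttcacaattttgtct
The windows are chr3:96293970-96294219 (Fcgr1, minus strand), chr1:171059404-171059653 (Fcgr3, minus strand, the first of 2 start sites listed), chr1:171018676-171018925 (Fcgr4, plus strand) and chr1:170976072-170976321 (Fcgr2b, minus strand). Capitals mark matches to 3 motifs searched on both strands: TTCNNNGAA, the pattern bound by STAT factors, GAGGAA, a core bound by the myeloid factor PU.1, and the pattern bound by interferon regulatory factors, a GAAA repeated after any 2 bases. No 2 of the matches overlapped. Fcgr1 held TTCNNNGAA from base -109 to -101 and GAGGAA on the opposite strand from -55 to -50. GAGGAA on the opposite strand also stood at -6 to -1 of Fcgr3 and at -22 to -17 of Fcgr4, and Fcgr4 held the repeated GAAA at -73 to -64. The windows of Fcgr2b, Fcer1g and Fcgrt held none of the 3. Of all 32851 promoter windows of this length, 7.02% held TTCNNNGAA, 23.3% held GAGGAA and 2.98% held the repeated GAAA, and a match is a description of the letters only.

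Fcgr1 encodes the high-affinity receptor CD64, which binds single IgG molecules. Its level in lineage cells was 179 CPM [173 to 186] in control blood, and 402 CPM [395 to 410] and 358 CPM [349 to 367] in the control and the depleted tumor. Both tumor libraries were thus above blood, and the intervals of the 3 libraries did not overlap. The highest levels within each control library lay in the clusters led by interferon-induced genes. In blood, cluster 6 reached 623 CPM [570 to 679], against 153 CPM [145 to 161] in the other monocyte-like cluster and 109 CPM [98.7 to 120] in nonclassical monocyte-like cells. In the control tumor, cluster 17 (led by Ifit3b, Ifit1, Ifit1bl1, Ifit3 and Ifit2) reached 1002 CPM, against 443 CPM in the other intermediate cluster, 313 CPM in the macrophage-like cells and 339 CPM in the monocyte-like cells. Fcgr1 is the member whose window above holds TTCNNNGAA, and no link between window and level was tested. The monocyte-like cells of the depleted tumor had the highest Fcgr1 level of that library, 495 CPM [473 to 518].

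Fcgr3 encodes the low-affinity receptor CD16 and was the most abundant of the 3 activating receptors in every lineage class except the clusters led by interferon-induced genes. In lineage cells it was at 393 CPM [383 to 402] in blood, and 594 CPM [584 to 603] and 539 CPM [528 to 550] in the control and the depleted tumor. It varied little among the control tumor's cells: monocyte-like, intermediate and macrophage-like cells had 612, 593 and 585 CPM, with intervals that overlapped between neighbours in this order. In the depleted tumor the macrophage-like cells stood lower, at 402 CPM [387 to 418], than the monocyte-like cells at 651 CPM and the intermediate cells at 621 CPM. In blood, nonclassical monocyte-like cells had 297 CPM [280 to 315] and monocyte-like cells 422 CPM [409 to 435].

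Fcgr4 encodes a receptor for mouse IgG2a and IgG2b. In lineage cells it was at 92.8 CPM [88.1 to 97.7] in blood, and 338 CPM [331 to 345] and 246 CPM [239 to 254] in the control and the depleted tumor. In blood it was highest in the nonclassical cells: cluster 1 had 253 CPM [237 to 269], against 23.2 CPM [20.1 to 26.7] in cluster 3 and 74.9 CPM in cluster 4. Cluster 6 stood above cluster 3. Fcgr4 made up 10.6% of its 1064 CPM of summed activating receptors, against 3.82% of 607 CPM in cluster 3. Monocyte-like cells of the tumors, which carry classical markers, had 234 CPM [220 to 249] without and 264 CPM [248 to 281] with depletion, close to the level of the nonclassical cells of blood. Neutrophil-like cells, which Ly6G sorting should largely have removed, had 144 CPM in blood (136 cells), 190.2 CPM in the control tumor (44 cells) and 416 CPM in the depleted tumor (283 cells).

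Fcer1g, the shared signalling chain, was counted far above the receptors that depend on it. The 3′ tag method takes 1 tag per transcript whatever its length, but how well each gene is captured differs, so a level set against that of another gene is approximate. Lineage cells had 5504 CPM [5467 to 5540] in blood, and 5080 CPM [5053 to 5108] and 3999 CPM [3969 to 4029] in the control and the depleted tumor. The highest class was the nonclassical monocyte-like cells of blood at 6936 CPM. The lowest lineage class was the macrophage-like cells of the depleted tumor at 3301 CPM, and cDC2-like cells (a conventional dendritic cell type) had 3335, 2520 and 2359 CPM in blood, control and depleted tumor.

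Fcgr2b, the inhibitory receptor, was at 249.6 CPM [242 to 258] in lineage cells of blood, 409.8 CPM [402 to 418] in those of the control tumor and 728 CPM [715 to 741] in those of the depleted tumor. It was lowest in blood and highest with Treg cells depleted, with no overlap of intervals. Within blood the highest class was cluster 4, the cells led by C1qb and class II antigen presentation genes, at 468 CPM [442 to 495], against 214 CPM in monocyte-like and 184 CPM in nonclassical monocyte-like cells. In the control tumor the intermediate cells had 487 CPM, the macrophage-like cells 339.6 CPM and the monocyte-like cells 283 CPM. Cluster 16 of the depleted tumor had 807 CPM, cluster 18 had 755 CPM and the monocyte-like cluster 19 had 584 CPM, given side by side since most of these cells lie in other clusters than those of the control tumor. The unnamed cluster 16 of the control tumor (112 cells) had 649 CPM, above the depleted tumor's monocyte-like cells. The gap was present without class names too: over all cells of the library Fcgr2b had 361 CPM with Treg cells present and 667 CPM with Treg cells depleted.

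Fcgrt was the least abundant member in lineage cells, at 63.9 CPM [60.0 to 68.0] in blood, and 63.4 CPM [60.4 to 66.5] and 21.9 CPM [19.7 to 24.2] in the control and the depleted tumor. Among the named cell groups it was the only member highest in dendritic cells, with 213 CPM [194 to 234], 207 CPM [192 to 222] and 157 CPM [135 to 181] in cDC2-like cells of the 3 libraries. Within the control tumor's lineage the macrophage-like cells had 103 CPM and the monocyte-like cells 26.9 CPM. The intermediate cells there had 53.7 CPM. In the depleted tumor Fcgrt was at 37.5 CPM in cluster 18, 14.03 CPM in the monocyte-like cluster 19 and 9.02 CPM [6.77 to 11.8] in cluster 16, values given side by side because the macrophage-like and intermediate names cover other clusters there.

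**Figure D1:**
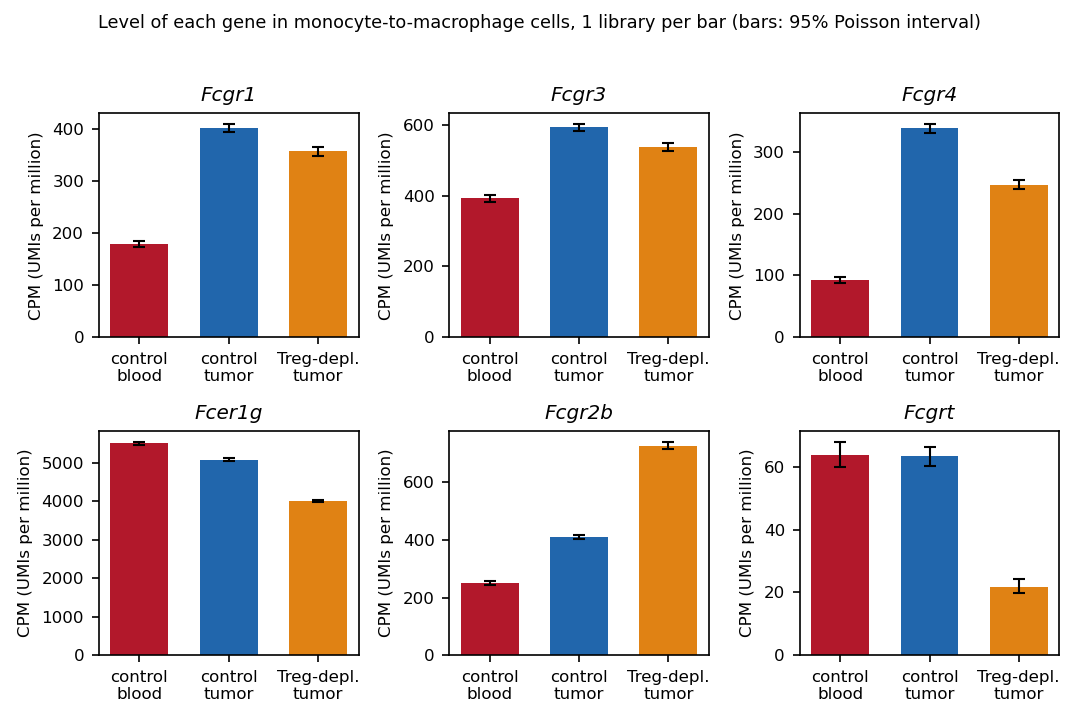
Level of each of the 6 genes in monocyte-to-macrophage cells, in CPM on the vertical axis (scales differ between panels), with 1 bar per library and 95% Poisson intervals as error bars. Fcgr2b stands at 249.6, 409.8 and 728 CPM across blood, control tumor and depleted tumor, while Fcgrt is at 21.9 CPM in the depleted tumor against 63.9 and 63.4 CPM in the others.

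**Figure D2:**
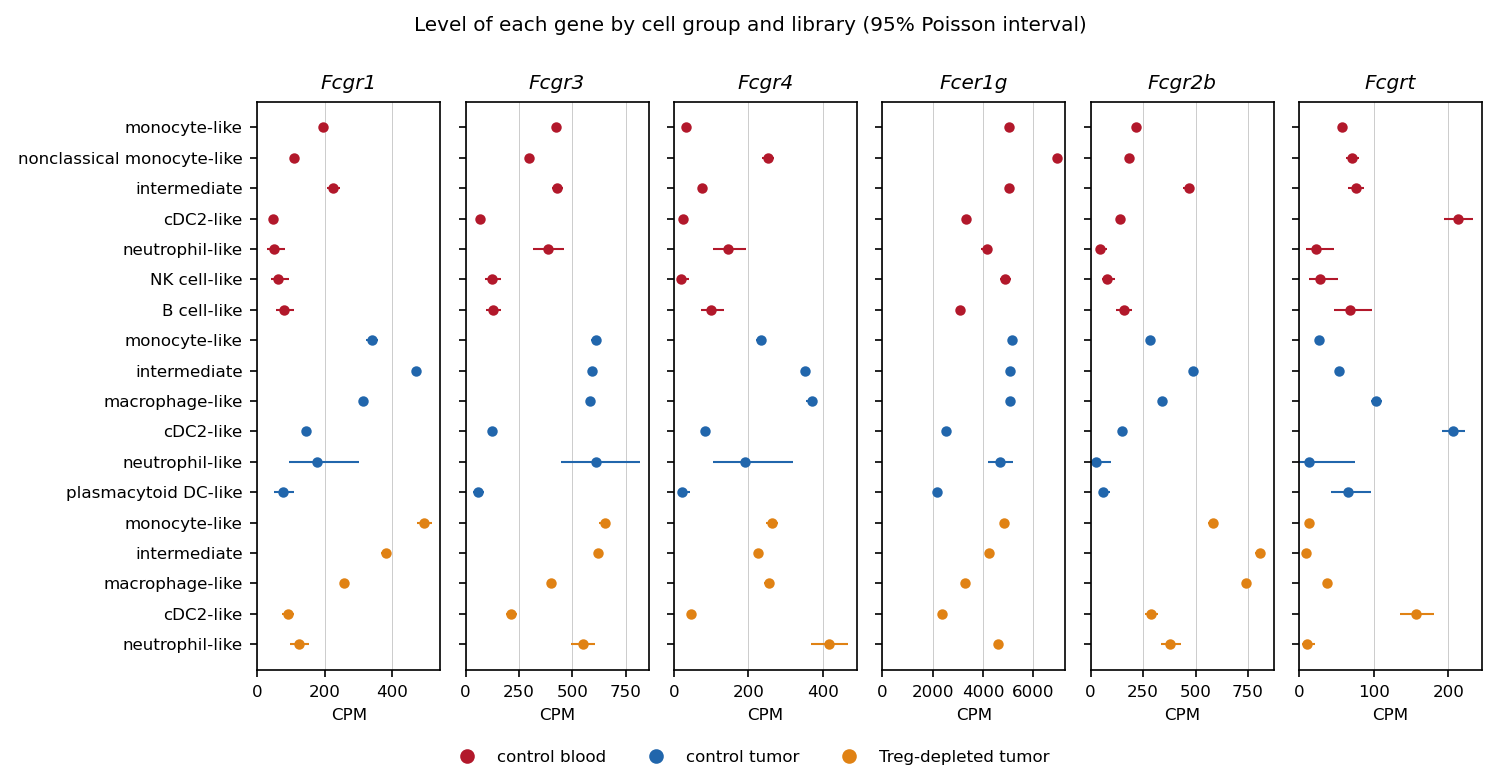
Level of each gene in CPM (horizontal axis, scales differ between panels) in each named cell group, colored by library, with 95% Poisson intervals. Fcgr4 in blood is at 253 CPM in nonclassical monocyte-like and 31.3 CPM in monocyte-like cells, and Fcgrt is highest in the cDC2-like cells of each library.

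The share of cells showing a gene was computed once each cell had been thinned to 1000 UMIs, since the libraries differed in depth. Among lineage cells of blood, control tumor and depleted tumor, Fcgr1 was seen in 14.8%, 29.9% and 26.1%, Fcgr3 in 29.9%, 42.3% and 37.0%, and Fcgr4 in 10.2%, 26.0% and 21.2%. The inhibitory Fcgr2b was seen in 20.1% [18.9% to 21.3%], 30.3% [28.7% to 31.9%] and 51.1% [49.5% to 52.7%]. Fcer1g was seen in 99.5%, 98.4% and 93.7%, and Fcgrt in 6.41%, 5.19% and 1.83%. With all UMIs of each cell the Fcgr2b shares were 49.2%, 77.2% and 86.1%, and the Fcgr1 shares 38.5%, 75.3% and 58.3%, so the deeper control tumor library gained most.

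RNA free in the droplets gives UMIs to cells that do not express a gene. Cell types with low shares of these genes are set beside the lineage cells, though part of their UMIs may be their own. In the control tumor, plasmacytoid DC-like cells (72 cells, median 4965.5 UMIs, led by Ly6d, Ccr9, Siglech, Cox6a2 and Klk1) had a thinned share of 2.78% for Fcgr1, 2.78% for Fcgr3, 1.39% for Fcgr4 and 5.56% for Fcgr2b, against lineage cells at a median of 6222 UMIs. In the depleted tumor, cDC1-like cells seen at the finer clustering (34 cells, median 4289.5 UMIs) had 2.94%, 11.8%, 5.88% and 5.88%, against a lineage median of 3921 UMIs. In blood, NK cell-like cells (183 cells, median 1478 UMIs) had 2.19% for Fcgr1 and 2.19% for Fcgr4, against a lineage median of 3581 UMIs. The lineage shares of the 3 activating receptors and of Fcgr2b in the tumors were above these levels in each library. Fcgr3 in NK cell-like cells, where it is the known receptor for antibody-dependent killing, had 123 CPM [89.0 to 166] and a thinned share of 8.20% in the few cells that passed the NK1.1 gate. B cell-like cells, which are not known for it, had 129 CPM [97.7 to 166] and 9.09%, at a median of 3085.5 UMIs, but they are no clean background: 19.1% of them were called doublets, and the 8 classical monocyte markers summed to 5927 CPM in them against 3531 CPM in NK cell-like cells. The part of doublets in either value was not tested. The B cell-like cluster also had 3073 CPM of Fcer1g, with UMIs in 66.4% of its thinned cells.

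Activating receptor UMIs (Fcgr1, Fcgr3 and Fcgr4 summed) were divided by Fcgr2b UMIs, a ratio within a cell group that does not depend on scaling between libraries. In lineage cells the ratio was 2.66 [2.57 to 2.76] in blood, and 3.26 [3.19 to 3.33] and 1.57 [1.53 to 1.61] in the control and the depleted tumor. It was thus highest in the control tumor and lowest in the depleted tumor. In blood it ran from 1.02 [0.866 to 1.202] in cDC2-like cells and 1.56 [1.45 to 1.67] in cluster 4 to 3.03 [2.88 to 3.19] in monocyte-like and 3.59 [3.30 to 3.91] in nonclassical monocyte-like cells. In the control tumor it was 2.31 in cDC2-like, 2.91 in intermediate, 3.73 in macrophage-like and 4.18 in monocyte-like cells. In the depleted tumor the same classes had 1.21, 1.52, 1.24 and 2.41. Monocyte-like cells had the highest value of these classes in both tumors, while the macrophage-like and intermediate names cover different clusters in each and are not compared.

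The make-up of the activating sum differed between sites. Fcgr4 made up 4.82% of activating UMIs in monocyte-like and 38.4% in nonclassical monocyte-like cells of blood, and 19.7% and 18.7% in monocyte-like cells of the control and depleted tumor. Fcgr1 made up 58.5% in blood cluster 6 and 49.0% in control tumor cluster 17, the interferon-gene-led clusters, against 25.2% in blood cluster 3 and 31.98% in control tumor cluster 15. Those 2 clusters also had high ratios to Fcgr2b for their library, 4.78 [4.08 to 5.64] and 4.56 [4.03 to 5.17]. Neutrophil-like cells had the highest ratios: 12.6 [7.30 to 23.5] in blood, from 14 Fcgr2b UMIs, and 2.87 [2.48 to 3.33] in the depleted tumor, from 247. The 44 neutrophil-like cells of the control tumor held 72 activating and 2 Fcgr2b UMIs, which gives 36.0 with an interval of 9.61 to 303. In neutrophil-like cells of the depleted tumor 8 of 10 macrophage markers reached 20 CPM, against 6 in the control tumor and 2 in blood, and their summed level was 731, 1345 and 933 CPM. Mrc1, Trem2 and Cd72 were at 0 in the control tumor, and C1qc and Mrc1 were among those at 0 in blood. Depth limits these counts. The median was 1271.5 UMIs in the 44 cells of the control tumor, 1561 in the 136 of blood and 1698 in the 283 of the depleted tumor. A marker at 0 may thus have gone unseen. The part of these markers in the ratio was not tested.

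**Figure D3:**
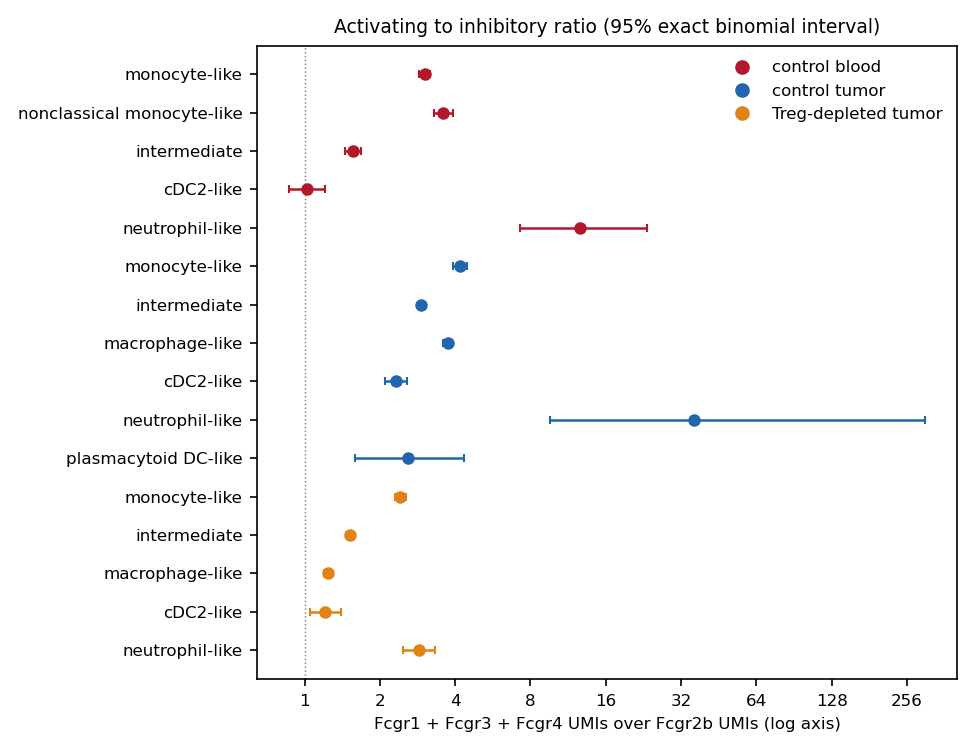
Activating to inhibitory ratio (Fcgr1, Fcgr3 and Fcgr4 UMIs over Fcgr2b UMIs, log axis) in each cell group, colored by library, with 95% exact binomial intervals. The lineage classes of the depleted tumor lie between 1.24 and 2.41, those of the control tumor between 2.91 and 4.18, and the neutrophil-like cells of the control tumor have a wide interval because they held 2 Fcgr2b UMIs.

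UMIs of both kinds were found in the same cells. After thinning, 9.26% of lineage cells in blood, and 21.7% and 32.5% in the control and the depleted tumor held UMIs of an activating receptor and of Fcgr2b. Cells with Fcgr2b UMIs and no activating ones made up 10.9%, 8.58% and 18.6%, and cells with activating UMIs alone 37.7%, 46.8% and 29.7%. The Fcgr2b-only share was largest with Treg cells depleted. Over all lineage cells of a library the presence of activating UMIs went with a small difference in Fcgr2b: in lineage cells of the depleted tumor 52.3% of cells with activating UMIs and 49.1% of those without had Fcgr2b UMIs, in the control tumor 31.7% and 27.2%, and in blood 19.7% and 20.5%. The difference was wider in some classes: 27.7% and 8.39% in cDC2-like cells of the control tumor, 24.0% and 11.5% in those of blood, and 29.0% and 19.3% in the control tumor's macrophage-like cells. It lay the other way in others: 37.3% and 41.3% in the C1qb-led cells of blood, and 17.6% and 19.5% in its monocyte-like cells. Neutrophil-like cells of the depleted tumor had 25.2% and 30.8%. At Leiden resolution 2, 90 of the control tumor's cDC2-like cells fell in a cDC1-like cluster of 91 cells. Fcgr2b was seen in 1.10% of that cluster after thinning. The part of such mixing in the cDC2-like difference was not tested. A cell without a UMI at this depth may still express the gene.

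**Figure D4:**
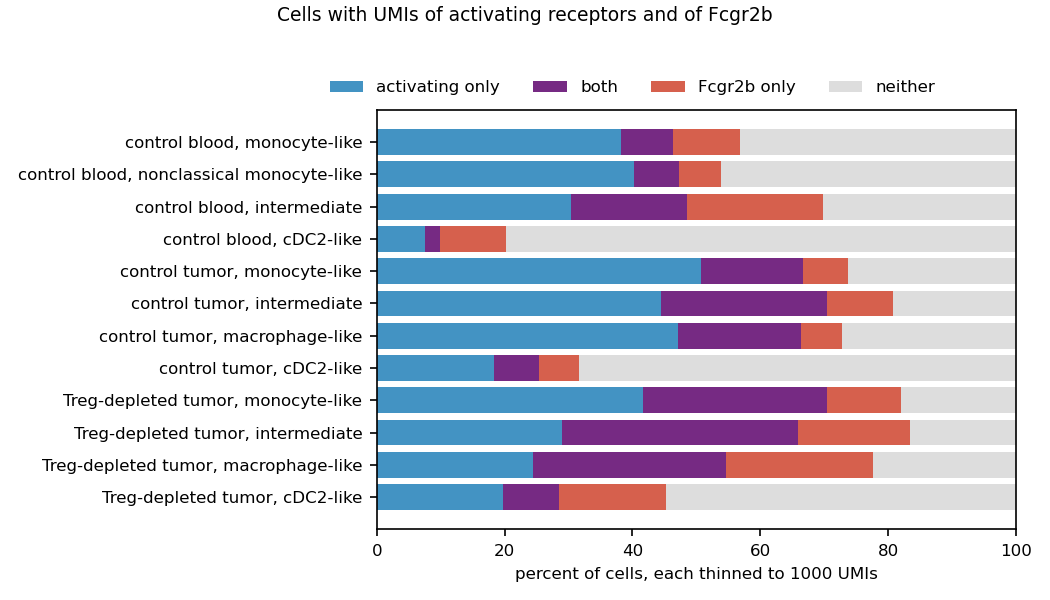
Share of cells (percent, each cell thinned to 1000 UMIs) with UMIs of activating receptors only, of Fcgr2b only, of both or of neither, by library and cell class. The Fcgr2b-only and both segments together are widest in the macrophage-like and intermediate cells of the depleted tumor.

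The control tumor was set against the control blood to see how the receptors differ between circulating and tumor-resident cells. In lineage cells Fcgr4 was 3.64-fold higher in the tumor (log2 ratio 1.86 [1.78 to 1.95]) and Fcgr1 2.25-fold higher (1.17 [1.11 to 1.23]). Fcgr2b (log2 ratio 0.72 [0.66 to 0.77]) and Fcgr3 (0.60 [0.55 to 0.64]) were higher by less than 2-fold. Fcer1g (-0.12) and Fcgrt (-0.01) were close to their blood level. So 2 of 6 members were at least 2-fold higher, beside 16.1% of 10990 genes, and 0 of 6 were at least 2-fold lower, beside 22.0%. The median log2 ratio of all genes was -0.26, and scaling by TMM or by DESeq2 size factors adds 0.25 or 0.27 to every log2 ratio of this comparison, which turns that of Fcer1g to 0.13 or 0.16, lifts that of Fcgrt above 0 as well and leaves those of Fcgr1, Fcgr3, Fcgr4 and Fcgr2b positive. The activating to inhibitory ratio was higher in the tumor by 0.29 on the log2 scale [0.23 to 0.35], but Fcgr3 alone over Fcgr2b was lower, at -0.12.

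Monocyte-like cells (clusters 3 and 6 in blood, cluster 14 in the control tumor) gave a comparison of cells with the same name. The classical monocyte markers summed to 10355 CPM in the tumor and 15242 CPM in blood, and the cDC2 markers to 697 and 126 CPM. Closer were the sums of the nonclassical monocyte markers (1264 and 1369 CPM) and of the macrophage markers (3173 and 3174 CPM). The make-up of the macrophage sum differed, with 9 of 10 markers at 20 CPM in the tumor and 5 in blood. C1qa was at 79.5 CPM in tumor cluster 14, and at 0.838 and 0 CPM in blood clusters 3 and 6. What part the marker differences have in the values below was not tested. Fcgr4 was 7.48-fold higher in the tumor (234 against 31.3 CPM, log2 ratio 2.90 [2.71 to 3.10]), a ratio exceeded by 3.39% of genes. Fcgrt was lower, at 26.9 against 57.4 CPM (log2 ratio -1.10 [-1.39 to -0.81]). Fcgr1 (0.80), Fcgr3 (0.54) and Fcgr2b (0.40) were higher by less than 2-fold, and Fcer1g was level (0.03). Without the interferon-gene-led cluster 6 of blood, an alternative chosen after the data had been seen, Fcgr1 passed 2-fold (1.15) and Fcgr4 was at 3.33. Of 6 members 1 was at least 2-fold higher, beside 10.7% of 9486 genes, and 1 was at least 2-fold lower, beside 30.1%. The median of all genes was -0.50 here, with shifts of 0.46 (TMM) and 0.49 (DESeq2 size factors). Under these scalings Fcgr1 passed 2-fold (1.26 and 1.29), Fcgr3 did so under DESeq2 size factors alone (0.999 and 1.03), and Fcgrt no longer did (-0.63 and -0.60). In cDC2-like cells (cluster 2 in blood, cluster 13 in the control tumor) Fcgr4 (83.1 against 25.7 CPM, log2 ratio 1.69) and Fcgr1 (144 against 48.1 CPM, 1.58) were at least 2-fold higher, which is 2 of 6 members beside 11.0% of 8012 genes, and 0 of 6 were at least 2-fold lower, beside 23.9%. Fcgr2b was at 151 and 138 CPM (log2 ratio 0.13 [-0.08 to 0.34]), and at Leiden resolution 2 at 185 CPM [169 to 202] and 143 CPM [127 to 160.2], so whether the intervals part depends on the clustering. The 8 markers of CCR7 dendritic cells summed to 911 CPM in the tumor's class and 13.1 CPM in that of blood, with 3 and 0 of them at 20 CPM and with Ccl22, Cacnb3 and Socs2 at 0 in blood, and their part was not tested. The ratio of activating to inhibitory UMIs was 2.31 against 1.02.

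The depleted tumor was set against the control tumor to see whether the receptors differ where Treg cells are removed. In lineage cells Fcgr2b was 1.78-fold higher (log2 ratio 0.83 [0.79 to 0.87]), a ratio exceeded by 12.1% of genes, and Fcgrt was 2.90-fold lower (log2 ratio -1.54 [-1.70 to -1.37]), with 95.99% of genes above it. The activating receptors were slightly lower: Fcgr4 by a log2 ratio of -0.45 [-0.51 to -0.40], Fcgr1 -0.17 [-0.22 to -0.12] and Fcgr3 -0.14 [-0.18 to -0.10], and Fcer1g was at -0.35. Of 6 members 0 were at least 2-fold higher, beside 8.96% of 10775 genes, and 1 was at least 2-fold lower, beside 9.23%. A count of 0 or 1 in 6 is near these background shares, so the counts by themselves set no member apart. The median of all genes was -0.05. The activating to inhibitory ratio was 2.07-fold lower (log2 -1.05 [-1.10 to -1.01]). It was -1.0005 with Fcgr1 alone, -0.97 with Fcgr3 alone and -1.28 with Fcgr4 alone over Fcgr2b, and -0.99 without the cycling cluster 12, an alternative chosen after the data had been seen.

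In monocyte-like cells (cluster 14 of the control tumor, cluster 19 of the depleted tumor) Fcgr2b was 2.06-fold higher (584 against 283 CPM, log2 ratio 1.04 [0.94 to 1.14]), with 6.99% of genes above it. The call at 2-fold ended under 4 alternatives, with log2 ratios of 0.53 at Leiden resolution 0.5, 0.89 at resolution 2, 0.96 with thinned cells and 0.95 within cluster 19, the last chosen after the data had been seen. Fcgr1 was higher too (495 against 339 CPM, 0.55 [0.45 to 0.64]), Fcgr4 (0.17) and Fcgr3 (0.09) little so, and Fcgrt was lower at 14.03 against 26.9 CPM (-0.94 [-1.43 to -0.46]). Of 6 members 1 was at least 2-fold higher, beside 7.53% of 7743 genes, and 0 were at least 2-fold lower, beside 5.30%. The activating to inhibitory ratio was lower by a log2 value of -0.79 [-0.91 to -0.68]. The 2 libraries filled this class from different clusters, and marker levels moved with the comparison: the 8 classical monocyte markers summed to 14698 against 10355 CPM and the 10 macrophage markers to 1270 against 3173 CPM, whose part was not tested. Within cluster 19 itself (790 Treg-depleted and 55 control cells, the latter left unnamed because the platelet gene Ppbp was among their leading genes) Fcgr2b was again higher, at 584 against 303 CPM (0.95 [0.62 to 1.30]), but Fcgr1 (-0.34 [-0.57 to -0.09]), Fcgr4 (-0.81 [-1.09 to -0.52]) and Fcgr3 (-0.16 [-0.38 to 0.06]) were not. The directions of Fcgr1 and Fcgr4 thus turned with the cells compared.

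Clusters 16 and 15, also present in both tumors, gave smaller differences of Fcgr2b than cluster 19. In cluster 16 (1430 Treg-depleted cells and 112 control cells, led in the former by Cxcl1, Serpinb2, Mmp12, Inhba and Lepr) Fcgr2b had 807 against 649 CPM (log2 ratio 0.31 [0.17 to 0.47]) and the ratio of activating to inhibitory UMIs was 1.52 against 2.14. The control cells were led by Hspa1a, Egr1, Egln3, Hspb1 and Ero1l. They were left unnamed because the melanoma gene Dct was among their leading genes. Fcgrt showed its lowest ratio in cluster 16, 9.02 against 32.5 CPM (-1.85 [-2.62 to -1.03]). In cluster 15 (43 Treg-depleted cells and 1565 control cells) Fcgr2b had 431 against 489 CPM (-0.18 [-0.44 to 0.06]), which at 136 Treg-depleted UMIs does not separate the libraries, and Fcgr4 was at 155 against 346 CPM (-1.16 [-1.59 to -0.75]). Of these 3 clusters, Fcgr2b was therefore higher in the depleted tumor in 16 and 19 and not in 15, and Fcgr4 was lower in all 3. Cluster 12, unnamed in the depleted tumor (75 cells), had a lower Fcgr2b level there than in the control tumor. The neutrophil-like cluster 20 had a higher level there, but the control value rests on 2 UMIs in 44 cells. Cluster 13 is given below.

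In cDC2-like cells (cluster 13 in both tumors, 197 Treg-depleted and 399 control cells) Fcgr2b was at 289.8 against 151 CPM (log2 ratio 0.94 [0.74 to 1.13]) and Fcgr3 at 214 against 123 CPM (0.80 [0.57 to 1.03]), while Fcgr4 (-0.85) and Fcgr1 (-0.67) were lower. No member passed 2-fold: 0 of 6 were higher by that much, beside 3.98% of 7358 genes, and 0 of 6 were lower, beside 7.79%. The summed activating level was the same within counting error, 351 and 350.3 CPM, and the ratio to Fcgr2b was 1.21 against 2.31. These values depend on which cells carry the name. At Leiden resolution 2, 56 of the 197 Treg-depleted cells fell in the CCR7 dendritic cell-like cluster and 34 in a cDC1-like one. That CCR7 cluster had 612 CPM of Fcgr2b and 337 CPM of Fcgr3. Of the 399 control cells 90 were cDC1-like. No control tumor cluster carried the CCR7 name at resolution 2, but 207 unnamed control cells were led by Fscn1, Il12b, Cacnb3, Tbc1d4 and Serpinb6b. At resolution 0.5 a control cluster of 30 cells was named CCR7 dendritic cell-like. At resolution 1 such markers led cluster 11 (434 control cells), which its depth left unnamed. The CCR7 dendritic markers summed to 593 CPM in the Treg-depleted and 911 CPM in the control class, and the part of such cells was not tested. At Leiden resolution 2 cDC2-like cells (56 Treg-depleted and 300 control cells) kept the higher Fcgr2b, at 249 against 185 CPM. Fcgr3, at 134 CPM [103 to 172] against 159.9 CPM [145 to 176], then lay the other way round. So did Fcgrt, at 269 CPM [224 to 321] against 211 CPM [194 to 229]. Both pairs of intervals overlapped.

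**Figure D5:**
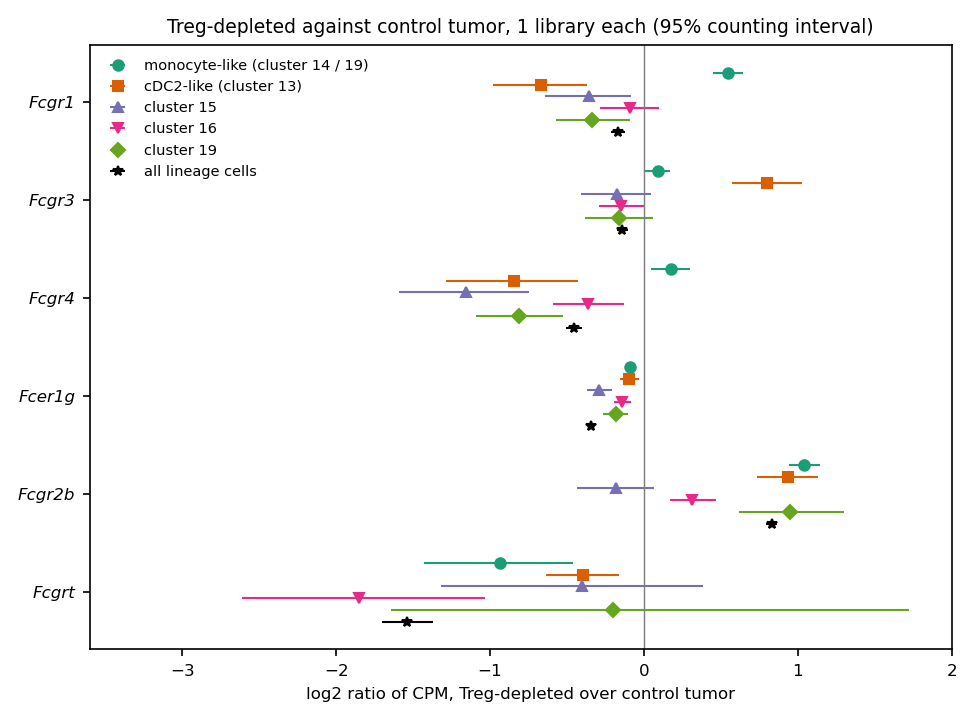
Log2 ratio of CPM, Treg-depleted over control tumor (horizontal axis, 0 marked), for each gene in lineage cells and in 5 cell groups, with 95% counting intervals. Fcgr2b lies at 0.83 in lineage cells and between 0.31 and 1.04 in 4 of the cell groups, with cluster 15 at -0.18. Fcgrt lies below 0 in each, with intervals that hold 0 in clusters 15 and 19.

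Both tumor comparisons share the control tumor library. The level of each member in monocyte-like cells across blood, control tumor and depleted tumor was 195, 339 and 495 CPM for Fcgr1, 422, 612 and 651 CPM for Fcgr3, 31.3, 234 and 264 CPM for Fcgr4, 214, 283 and 584 CPM for Fcgr2b and 57.4, 26.9 and 14.03 CPM for Fcgrt. Against blood, Fcgr4 thus had most of its difference in the control tumor already, while Fcgr2b had most of it in the depleted tumor.

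The genes through which the receptors signal were taken from lists. Of 15 kinases, adaptors and effectors 2 were 2-fold or more higher and 5 lower by as much in lineage cells of the control tumor than of blood (median log2 ratio -0.28, all genes -0.26), from the Src-family kinase Fyn (54.4 against 21.1 CPM) to the Src-family kinase Fgr (50.9 against 221 CPM). Between the tumors 1 was higher and 2 lower (median -0.10, all genes -0.05), with Fyn at 71.6 CPM in the Treg-depleted and 54.4 CPM in the control tumor. These medians lay near those of all genes in lineage cells. In monocyte-like cells, with 14 of the list measured, they lay further off: -0.12 against -0.50 for all genes between control tumor and blood, with 2 higher and 2 lower, and -0.48 against -0.02 between the tumors, with 0 past 2-fold either way. Of 8 negative regulators 1 was higher and 3 lower in tumor than in blood (median -0.89), from the adaptor Dok2 (121 against 10.2 CPM) to its relative Dok3 (30.6 against 183 CPM), and 2 were higher and 1 lower in the Treg-depleted than in the control tumor (median 0.17), where the ubiquitin ligase gene Cbl, with 117 against 57.0 CPM, was among the higher. The phosphatase gene Ptpn6 was at 109.9 against 195 CPM, short of 2-fold, and the 1 lower gene was the adaptor gene Dok1, at 16.7 against 36.2 CPM, named after its values had been seen.

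Other receptors that pair with the FcR gamma chain, with the related adaptor Tyrobp, were a further list. Of 5 measured, 3 were at least 2-fold higher in lineage cells of the control tumor and 0 lower (median log2 ratio 4.30), from Clec4n, which encodes the fungal receptor Dectin-2, at 706 against 22.8 CPM, to Tyrobp at 3034 against 5672 CPM. Between the tumors 0 of 5 passed 2-fold in lineage cells (median -0.50), and the pattern receptor gene Clec4e was the lowest at 486 against 764 CPM. In monocyte-like cells 0 were higher and 1 lower (median -0.70), with Clec4e at 678 against 1720 CPM. Of 12 other receptors for Fc parts or their relatives, 5 were measured and none reached 50 CPM in lineage cells, with 3 higher and 2 lower in tumor than in blood (median 2.20) and 2 higher and 1 lower in the depleted tumor (median -0.17). The gene of the Fcgrt partner, B2m, was at 6764, 8450 and 10303 CPM in blood, control and depleted tumor, so it was highest where Fcgrt was lowest.

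Interferon gamma is a known inducer of Fcgr1 and Fcgr4. Of 6 genes of its pathway 1 was at least 2-fold higher and 1 lower in lineage cells of the control tumor than of blood (median 0.18), the factor Irf1 at 171 against 59.6 CPM and the receptor gene Ifngr1 at 163 against 791 CPM. In monocyte-like cells 3 were higher, beside 10.7% of all genes, and 1 lower, beside 30.1%. The median of the 6 was 0.81 (all genes -0.50), and Irf1 was at 416 against 53.8 CPM. Between the tumors 1 was higher and 1 lower in lineage cells (median 0.24), the kinase gene Jak2 at 89.0 CPM in the Treg-depleted and 36.2 CPM in the control tumor and Ifngr1 at 76.0 and 163 CPM. In monocyte-like cells 1 was higher and 1 lower too, but with a median of -0.27. IL-4, IL-10 and TGF-beta signalling is known to raise or keep Fcgr2b. Of 8 genes of these pathways 2 were higher and 0 lower in tumor than in blood (median -0.26), with the receptor gene Il4ra at 67.5 against 24.1 CPM and the factor Stat6 at 32.3 against 57.2 CPM. In monocyte-like cells 4 of the 8 were higher and 0 lower (median 0.79, all genes -0.50). Lineage cells of the depleted tumor had 0 higher and 1 lower than those of the control tumor (median -0.10), with Il4ra at 95.2 against 67.5 CPM and Il10rb, a receptor chain, at 197 against 198 CPM. Monocyte-like cells had 0 higher and 0 lower between the tumors (median -0.31). Whether any of these pathways has a part in the receptor levels was not tested.

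Complement and other phagocytic receptors served as a comparison. In lineage cells 6 of 8 were at least 2-fold higher in the control tumor than in blood and 0 lower (median 2.56), from C3ar1, the receptor for the complement fragment C3a, at 250.3 against 4.28 CPM to the integrin gene Itgam at 122 against 147 CPM. Between the tumors 2 were higher and 2 lower (median -0.02), the scavenger receptor gene Cd36 at 441 against 161 CPM and C5ar1, the receptor for the fragment C5a, at 192 against 446 CPM. No test set these lists against the Fc receptors.

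Over the 17 groups of at least 50 cells (a class in a library), the genes whose log2(CPM + 10) followed each member most closely among 4984 genes were found by Pearson correlation, as a description. For Fcgr1 they were Ms4a6d (r = 0.94), Cfb (0.93) and Msr1 (0.93), for Fcgr3 Pla2g7 (0.90), Aprt (0.86) and Slfn2 (0.85), and for Fcgr4 Cebpb (0.83), Noct (0.83) and 3110043O21Rik (0.83). For Fcer1g they were Sat1 (0.85), Klra2 (0.85) and Dgkz (0.83), for Fcgr2b they included Myof (0.93) and Sdc3 (0.90), and for Fcgrt Gars (0.93), Fh1 (0.93) and Lactb (0.90). Among the members, Fcgr1 and Fcgr2b followed each other most closely (r = 0.83), Fcgr3 and Fcgr4 had 0.78, and Fcgrt had negative values with the other 5, from -0.58 with Fcgr3 to -0.27 with Fcgr2b. The groups share libraries and depth, so these values count no independent replicates.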

How the data were processed

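Each library came as a deposited matrix of UMI counts, whole numbers for 27998 genes by 737280 barcodes. Per the submitters' processing notes they come from Cell Ranger 1.2 with mm10. Per the labels' protocols the kit was 10x 3′ v2. Cells were called by the filter given above. They held 86.4%, 91.0% and 83.3% of the 22944387, 42493416 and 23291061 UMIs of blood, control and depleted tumor. Doublets were kept, and removed in an alternative. Cells of all libraries were clustered together with scanpy 1.11.5 (2000 variable genes, 30 components, 20 neighbours, Leiden resolution 1, no batch correction). Clusters of at least 30 cells were named per library from 21 marker lists (138 of 146 genes found), with 3 markers at 20 CPM needed. A split of 0.5 between macrophage and classical monocyte scores, and other naming thresholds, were set after the data had been seen. Unnamed cells numbered 200, 653 and 133. Among them were 434 control tumor cells (cluster 11) with a median of 15897.5 UMIs.

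UMIs were summed per cell group. Log2 ratios carry exact conditional binomial intervals, and ratios of ratios carry normal intervals from the counts.  The calculation was tested on simulated data. DESeq2 1.42.0 and edgeR 4.0.16 gave scaling factors only. Promoter windows are from RefSeq and matched all 6 members. Pathway genes came from 8 lists (65 of 66 found), named where they had the largest or smallest ratio of their list at 50 CPM or more. Cell groups are described by 5 leading genes, and each member by its 3 most similar genes. Some genes that these rules pick are not reported here. The members and lists were chosen with earlier results of these data known.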

Additional observations from a re-analysis of the deposited data

Results flagged for a closer look

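Members whose log2 ratio was above 0 in a cell group and below 0 in another, with both counting intervals off 0, are given here. The difference between the groups was not tested. Between control tumor and blood, Fcer1g was at 0.03 in monocyte-like and -0.40 in cDC2-like cells. Between Treg-depleted and control tumor, Fcgr1 was at 0.55 in monocyte-like cells, and at -0.67 in cDC2-like cells, -0.36 in cluster 15 and -0.34 in cluster 19. Fcgr3 was at 0.09 in monocyte-like and 0.80 in cDC2-like cells and at -0.15 in cluster 16. Fcgr4 was at 0.17 in monocyte-like cells, and at -0.85 in cDC2-like cells, -1.16 in cluster 15, -0.36 in cluster 16 and -0.81 in cluster 19.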

How the results depend on the processing

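No paired analysis was possible because each group has 1 library. The log2 ratio of activating to inhibitory ratios between the tumors stayed negative under all 15 alternatives in lineage cells (-1.30 to -0.25) and all 12 in monocyte-like cells (-1.32 to -0.28). Outside the counting interval in lineage cells were thinning (-1.30), Leiden resolution 2 (-0.97), clusters 15 (-0.25) and 16 (-0.49) alone, no cluster 12 (-0.99), and Fcgr1 (-1.0005), Fcgr3 (-0.97) or Fcgr4 (-1.28) alone over Fcgr2b. In monocyte-like cells these were a coarser clustering, at Leiden resolution 0.5 (-0.28), gating each cell by its own markers (-1.03), cluster 19 in both libraries (-1.32), Fcgr1 alone (-0.50) and Fcgr3 alone (-0.95). Between control tumor and blood the lineage value was 0.040 at Leiden resolution 0.5, 0.45 with Fcgr1, 1.15 with Fcgr4 and -0.12 with Fcgr3 alone. The monocyte-like value was 0.61 with the gate, 0.13 with Fcgr3 and 2.50 with Fcgr4 alone. The signs of 9 single-gene values turned where the reported interval was off 0. Fcgrt between control tumor and blood in lineage cells, whose interval held 0, ran from -0.28 to 0.26. Between the tumors these were Fcgr2b in cluster 15 (-0.18), and in monocyte-like cells Fcgr1 with the gate (-0.068) and in cluster 19 (-0.34), Fcgr3 in cluster 19 (-0.16), Fcgr4 with the gate (-0.052) and in cluster 19 (-0.81) and Fcer1g at Leiden resolution 0.5 (0.011). Between control tumor and blood they were Fcer1g in lineage cells under TMM (0.13) and DESeq2 size factors (0.16). Where no construction shows it, the cause was not tested. Counting every gene with at least 1 UMI moved the share of genes at least 2-fold higher between the tumors in lineage cells from 8.96% to 17.1%. Free RNA was subtracted as 1 share per library (2.001%, 3.65% and 0.733%), not per cell. This share was the lowest of 4, 3 and 3 estimates from marker genes of other cell types. The highest estimates were 18.6%, 57.4% and 39.7%, and subtraction at those was not run. Depth limits the lowest gene, Fcgrt, most: 54 of its UMIs carry the depleted tumor's value in monocyte-like cells.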

Other observations

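Cells left unnamed also held these receptors. Cluster 11 of the control tumor, led by Fscn1, Il12b, Tbc1d4, Serpinb6b and Ccl22, had 279.5 CPM of Fcgr1, 386 CPM of Fcgr3, 289 CPM of Fcgr4, 292 CPM of Fcgr2b and 69.5 CPM of Fcgrt in 434 cells. Its activating to inhibitory ratio was 3.27 [3.12 to 3.43]. Cluster 12 of the Treg-depleted tumor, led by the melanoma gene Dct and by cell-cycle genes, had 257 CPM of Fcgr2b in 75 cells. Barcodes under 100 UMIs, which hold free RNA, had 316, 375 and 645 CPM of Fcgr2b in blood, control and depleted tumor, and 102, 91.7 and 36.0 CPM of Fcgrt.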
